A study of Mus musculus with 6 samples.

Results

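The genes described here encode enzymes that modify and crosslink collagen: the lysyl oxidases Lox, Loxl1, Loxl2, Loxl3 and Loxl4, the lysyl hydroxylases Plod1, Plod2 and Plod3, and the prolyl 4-hydroxylase alpha subunits P4ha1 and P4ha2. They were chosen by symbol as 10 of the 46603 genes counted, and all 10 passed the filter on low counts. These genes and the gene lists below were chosen with earlier results of these data known. RNA was sequenced from mouse embryonic fibroblasts without beta-actin (β-actin−/−, KO) and from wild-type (WT) fibroblasts, 3 libraries each, to ask how gene expression differs between the genotypes under adipogenic induction. Both groups carry the strain label BALB/c and an embryo age of 10.5 days, and both had spent 6 days in growth medium with insulin, dexamethasone, 3-isobutyl-1-methylxanthine and ascorbic acid. The cells of both genotypes were supplied by another laboratory, no library without this medium was analysed here, and the labels do not say whether the libraries of a group came from separate embryos or cultures, so p-values measure the spread between these libraries, which may be technical.

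Collagen chains are modified while they fold in the endoplasmic reticulum. Prolyl 4-hydroxylases make the hydroxyproline that holds the triple helix together, and lysyl hydroxylases make the hydroxylysine on which sugars are placed and stable crosslinks are built. Both are dioxygenases that use iron, oxygen, 2-oxoglutarate and ascorbate, and ascorbic acid was part of the medium of all 6 cultures. Outside the cell, lysyl oxidases, which are copper enzymes, oxidise lysine and hydroxylysine side chains to the aldehydes that form the crosslinks of fibrils and elastic fibres.

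Of the 10 enzyme genes, 6 were higher in KO and none was lower. The prolyl 4-hydroxylase subunits P4ha1 and P4ha2 rose by 1.47 and 1.60 log2, Plod2 by 1.26, Lox by 1.01, Loxl2 by 0.78 and Plod1 by 0.54. Plod3, Loxl1, Loxl3 and Loxl4 were not called. A gene was called at a Benjamini-Hochberg adjusted p below 0.05 in edgeR's quasi-likelihood test over all 15009 tested genes, of which 28.3% were called, 13.8% higher and 14.5% lower. The median log2 fold change was 0.66 over the 10 genes and 0.01 over all tested genes. The count of 0 lower genes was also 0 at an unadjusted p below 0.05, with DESeq2 and with limma-voom. With 10 genes and 14.5% lower among all tested genes, a count of 0 lower says little.

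Library totals ran from 26955708 to 38619711 counts, and Actb, the targeted gene, fell from 53894 to 60582 counts per WT library to 276, 1988 and 1850 counts in the KO libraries (edgeR adjusted p = 0.00088). KO replicate 1 stood apart from the other KO libraries: 17.17% and 15.78% of tested genes differed from KO replicates 2 and 3 by more than 1 log2 unit, against 2.74% between those 2 libraries and 2.78% to 3.67% among WT libraries. Results are therefore also given without it. Beside the marker counts that follow, 13.8% of all tested genes were higher and 14.5% lower. Of 8 fibroblast markers, 7 of them tested, 5 rose. Their summed level was 1213 to 1361 CPM (counts per 1000000, in libraries scaled by TMM) in WT and 2734 to 2960 in KO. Most of it was Vim (means of 604.9 and 1186 CPM in WT and KO) and Col1a1 (560.0 and 1545). Pdgfrb and S100a4 were not called, and Col1a1 and Col1a2 are also among the substrates below. Thy1, with 0 or 1 count in each WT library and 13 to 20 in each KO library, and Fap, with 0 to 6 counts in any library, were scarce. Smooth muscle and myofibroblast markers, such as Acta2 and Cnn1, rose in 5 of 6 cases, from a sum of 53.4 to 86.3 CPM in WT to 4669 to 13020 in KO, and Myh11 was at 0.676 to 1.01 CPM. Mature adipocyte markers summed to 5.03 to 10.2 CPM in WT and 8.98 to 109.9 in KO. Fabp4, the 1 tested of 6, was not called (2.56 log2, edgeR adjusted p = 0.0687). Fabp4 alone was at 109.4 CPM in KO replicate 1 and at 8.60 and 16.2 in KO replicates 2 and 3. Cidec was at 0 in WT and at 0, 3 and 45 counts in KO replicates 1, 2 and 3. Lep was at 0 in all 6 libraries, and Adipoq at 0 in WT and 1 count in KO. Summed endothelial markers were at 3.43 to 4.69 CPM in WT and 2.20 to 3.76 in KO, with Vwf called lower (-1.56 log2, edgeR adjusted p = 0.0286). Summed macrophage markers were at 18.2 to 36.4 CPM in WT and 20.5 to 30.4 in KO, mostly from Cd68 and Cd14, neither of them called. Fcer1g was called lower (-3.71 log2, edgeR adjusted p = 0.0064), with 15 to 24 counts in WT libraries and 0 to 3 in KO libraries. Ptprc, Adgre1 and Itgam had 0 or 1 count in any library, and Tyrobp was at 0. Epithelial markers summed to 5.03 to 10.3 CPM in WT and 30.3 to 50.6 in KO, with Krt18 and Krt19 higher and Epcam at 0 in KO. Chondrocyte and osteoblast markers summed to 56.3 to 61.6 CPM in WT and 60.6 to 83.5 in KO. Runx2, the 1 called of 3 tested, was higher (0.76 log2, edgeR adjusted p = 0.0179). Sox9 (-0.30 log2) and Col2a1 (-0.45 log2) were not called. In both, every KO library was below every WT library, as in 25.8% of all tested genes. Bglap, not tested, had 52 counts in the WT libraries together and 18 in the KO libraries. The part of these cell states in the results below was not tested. In bulk RNA, more cells with a transcript and more transcript per cell cannot be told apart.

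**Figure D1:**
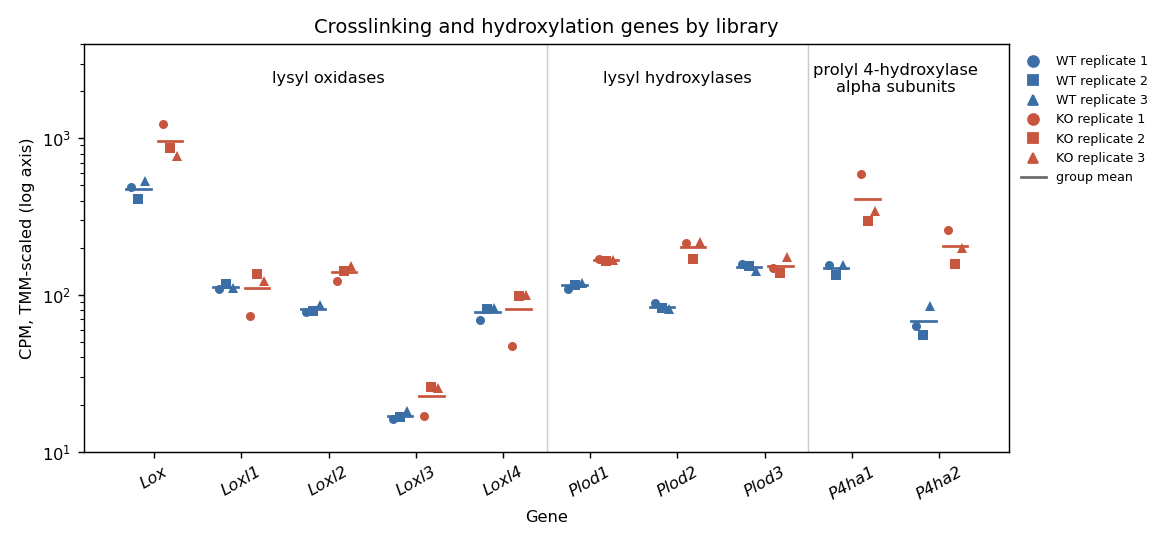
Level of each enzyme gene in each library, in CPM on a log axis. Points are single libraries (circle, square and triangle for replicates 1, 2 and 3; WT blue, KO red) and short lines are group means. In P4ha1, P4ha2, Plod1, Plod2, Lox and Loxl2 the 3 KO points lie above the 3 WT points, and in Loxl1 and Loxl4 KO replicate 1 lies below them while KO replicates 2 and 3 lie above.

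The alpha subunits of prolyl 4-hydroxylase carry the catalytic site, and with all 6 libraries their fold changes were the greatest among the 10 genes. Without KO replicate 1 P4ha2 was still the highest (1.40 log2), but Plod2 (1.20) was above P4ha1 (1.11). P4ha1 (ENSMUSG00000019916, chromosome 10, 59323296 to 59373304, plus strand, GRCm38) is the major isoform of most tissues. Its level was 154.7, 134.2 and 156.4 CPM in WT replicates 1, 2 and 3 and 590.9, 297.2 and 341.9 CPM in KO. Every KO library was above every WT library, which held for 23.8% of tested genes, and KO replicate 1 was the highest, at 1.85 times the mean of the other KO libraries. The log2 fold change was 1.47 (SE 0.31, n = 3 per group, edgeR adjusted p = 0.0053), or 1.11 without KO replicate 1 (adjusted p = 0.000193).

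P4ha2 (ENSMUSG00000018906, chromosome 11, 54100095 to 54131665, plus strand) encodes the second alpha subunit, best known from cartilage and bone. It was measured at 63.2, 55.5 and 85.1 CPM in WT and 261.3, 157.7 and 199.5 CPM in KO. The groups did not overlap, and KO replicate 1 was again the highest. P4ha2 rose 3.04-fold, a log2 fold change of 1.60 (SE 0.28, edgeR adjusted p = 0.0023), and by 1.40 without KO replicate 1 (adjusted p = 0.000715). It was the only one of the 10 genes called when edgeR tested against a log2 fold change of 1 (glmTreat).

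Because both P4ha genes rose, and both are known targets of the hypoxia-inducible factor HIF, their promoter windows are shown with those of a gene that was not called. The RefSeq table (GRCm38.p6) held a window of 300 bases, 250 before the start of transcription and 50 after, for 5 of the 10 genes: Loxl4, Plod1, Plod3, P4ha1 and P4ha2. Capitals mark ACGTG and GCGTG, the core of the hypoxia response element, on either strand; matches of the 2 patterns may overlap. The windows lie at chr10:59323046-59323345, plus strand, for P4ha1, chr11:54100674-54100973, plus strand, for P4ha2 and chr5:136986769-136987068, plus strand, for Plod3, all written 5′ to 3′.
P4ha1: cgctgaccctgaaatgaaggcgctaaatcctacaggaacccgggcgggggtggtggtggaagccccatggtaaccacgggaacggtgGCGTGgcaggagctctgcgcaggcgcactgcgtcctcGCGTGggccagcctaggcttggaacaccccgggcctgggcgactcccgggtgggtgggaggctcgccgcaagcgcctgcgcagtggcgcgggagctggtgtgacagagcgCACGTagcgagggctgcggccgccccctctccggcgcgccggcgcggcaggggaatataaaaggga
P4ha2: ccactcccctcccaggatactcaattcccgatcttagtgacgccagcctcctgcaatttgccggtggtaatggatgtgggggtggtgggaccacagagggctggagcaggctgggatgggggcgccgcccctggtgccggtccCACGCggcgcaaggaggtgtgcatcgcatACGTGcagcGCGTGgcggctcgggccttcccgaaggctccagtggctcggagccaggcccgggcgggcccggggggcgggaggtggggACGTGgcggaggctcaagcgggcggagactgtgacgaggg
Plod3: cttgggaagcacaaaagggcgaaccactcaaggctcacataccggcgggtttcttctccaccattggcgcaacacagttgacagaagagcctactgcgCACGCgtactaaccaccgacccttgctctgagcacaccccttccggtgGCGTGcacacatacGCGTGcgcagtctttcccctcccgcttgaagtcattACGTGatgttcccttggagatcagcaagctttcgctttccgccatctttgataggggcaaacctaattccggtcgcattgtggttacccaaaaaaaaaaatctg

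The P4ha1 window held 1 match to ACGTG and 2 to GCGTG, and the P4ha2 window 2 and 2. Plod3, which was not called, had 1 match to ACGTG and 3 to GCGTG. The window of Plod1, a called gene, had 0 and 2 matches, and that of Loxl4, not called, 0 and 1. Whether matches go with the calls was not tested. Among all 32851 windows of the table, 19.6% held ACGTG and 32.4% held GCGTG. The TEAD motif GGAATG had 0 matches in the 5 windows on either strand and was held by 14.7% of all windows. The SRF motif called the CArG box also had 0 matches and was held by 1.63% of all windows. A match describes these letters and is no evidence of a bound site.

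Lysyl hydroxylases differ in the lysines they act on. Plod2 (ENSMUSG00000032374, chromosome 9, 92542223 to 92608428, plus strand) encodes the enzyme of telopeptide lysines, the ends of the chain from which the hydroxyallysine crosslinks of stiff matrix start. Its level was 89.0, 82.7 and 81.0 CPM in WT and 215.9, 170.3 and 217.1 CPM in KO. The groups were far apart, and KO replicate 1 was close to KO replicate 3. Plod2 rose 2.39-fold, with a log2 fold change of 1.26 (SE 0.12, edgeR adjusted p = 0.000616), and by 1.20 without KO replicate 1. Of its exonic bases 6.42% are shared with Gm38391 on the opposite strand, and the strand setting of the counting is not given in the sources used here.

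Plod1 (ENSMUSG00000019055, chromosome 4, 147909753 to 147936767, minus strand), which hydroxylates lysines of the helix, had 109.6, 116.0 and 119.5 CPM in WT and 170.6, 163.7 and 167.5 CPM in KO. The change was small but the 3 libraries of each group were nearly level, KO replicate 1 included. Its log2 fold change was 0.54 (SE 0.04, edgeR adjusted p = 0.00616).

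Plod3 (ENSMUSG00000004846, chromosome 5, 136987019 to 136996648, plus strand) encodes an enzyme that also places sugars on hydroxylysine. It was at 158.4, 152.8 and 142.9 CPM in WT and 149.4, 138.5 and 174.3 CPM in KO. The ranges overlapped, with KO libraries both above and below WT, and the log2 fold change was 0.03 (SE 0.11, edgeR adjusted p = 0.894), with its sign turning under library totals (-0.17) and upper-quartile scaling (-0.03). Znhit1 on the opposite strand and a microRNA gene on the same strand share 11.9% of its exonic bases.

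Per length, measured as CPM per kilobase of exon, Plod3 was the leading lysyl hydroxylase of WT cells (33.5 ± 1.73, SD, n = 3), ahead of Plod1 (17.0 ± 0.745) and Plod2 (15.6 ± 0.783). Plod1 and Plod2 were not separated there, since in WT replicate 1 Plod2 made up the larger share of the 3 genes (24.4% against 23.9%). In KO, Plod2 (37.3 ± 4.94) and Plod3 (34.1 ± 4.06) differed by less than their SDs between libraries, although Plod2 was above Plod3 in each KO library, and Plod1 (24.7 ± 0.515) was below both. Over the libraries Plod2 made up 24.4%, 23.1% and 23.4% in WT and 40.7%, 36.6% and 38.9% in KO. The share of Plod3 was 51.7%, 51.0% and 49.2% in WT and 33.6%, 35.5% and 37.2% in KO, and that of Plod1 overlapped between the groups (23.9% to 27.5% in WT and 23.9% to 28.0% in KO). These shares describe the libraries and were not tested.

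**Figure D2:**
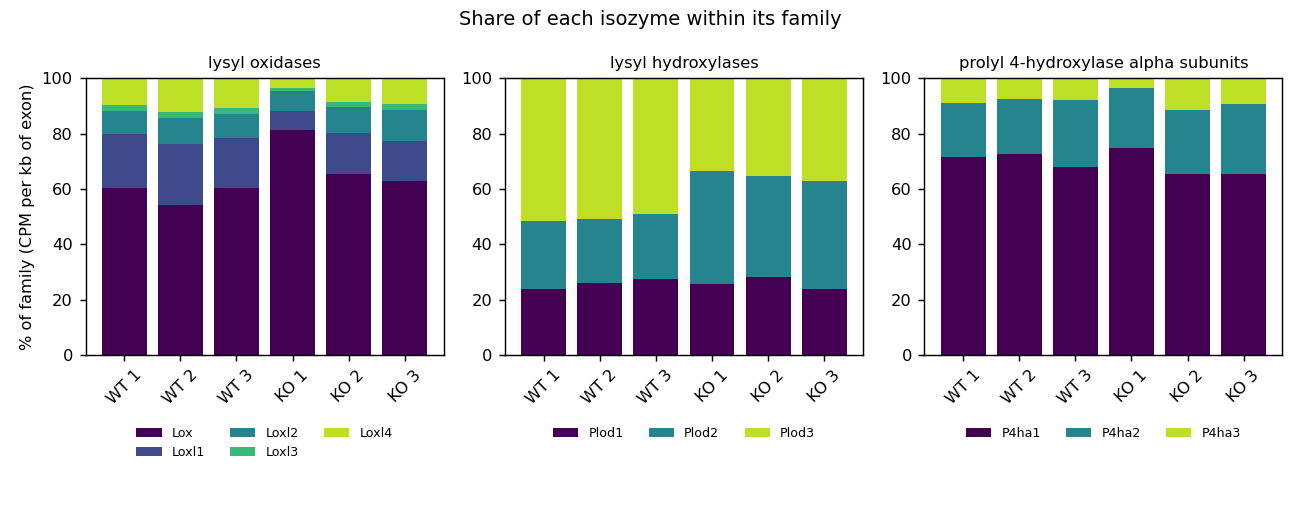
Share of each isozyme in the summed level of its family, in percent of CPM per kilobase of exon, for each of the 6 libraries. The Plod2 share is 23.1% to 24.4% in WT and 36.6% to 40.7% in KO, and the Lox share is highest in KO replicate 1 (81.3%).

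Among the lysyl oxidases, Lox (ENSMUSG00000024529, chromosome 18, 52516067 to 52529867, minus strand) encodes the founding enzyme, which crosslinks fibrillar collagen and elastin. It was one of the more abundant transcripts, at the percentile 98.1 of tested genes by level per length. Lox had 488.3, 410.3 and 532.6 CPM in WT and 1239, 871.9 and 766.7 CPM in KO. All KO libraries were above all WT libraries and KO replicate 1 was the highest. The log2 fold change was 1.01 (SE 0.23, edgeR adjusted p = 0.0101), and 0.78 without KO replicate 1 (adjusted p = 0.00234). The call was lost without WT replicate 2, the lowest WT library (0.90 log2, adjusted p = 0.0539, against 0.00234 to 0.0447 without any other library).

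Loxl2 (ENSMUSG00000034205, chromosome 14, 69609068 to 69695834, plus strand), a secreted oxidase of collagen IV and fibrillar collagen, was at 77.9, 78.9 and 86.9 CPM in WT and 122.0, 142.7 and 153.8 CPM in KO. The groups did not overlap, but here KO replicate 1 was the lowest KO library. Its log2 fold change was 0.78 (SE 0.11, edgeR adjusted p = 0.00339), or 0.87 without KO replicate 1. A gene on the opposite strand, Gm27177, shares exonic bases with it, and 5.70% of its exonic bases are shared in all.

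Loxl1, Loxl3 and Loxl4 were not called, and in each of them KO replicate 1 was the lowest KO library. Loxl1 (ENSMUSG00000032334, chromosome 9, 58287738 to 58313186, minus strand), which is needed for elastic fibres, had 108.7, 116.9 and 111.6 CPM in WT and 73.4, 136.3 and 122.1 CPM in KO. KO replicate 1 was below all WT libraries while the other KO libraries were above them. Its log2 fold change was -0.02 (SE 0.28, edgeR adjusted p = 0.948), and 0.20 without KO replicate 1 (adjusted p = 0.0956).

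Loxl4 (ENSMUSG00000025185, chromosome 19, 42593982 to 42612813, minus strand), a relative of Loxl2 with the same scavenger receptor domains, showed the same order. It was at 69.0, 81.2 and 83.2 CPM in WT and 47.5, 98.5 and 99.4 CPM in KO. The mean of KO replicates 2 and 3 was 2.08 times the level of KO replicate 1. The log2 fold change was 0.07 (SE 0.36, edgeR adjusted p = 0.86) with all libraries, -0.11 under library totals, and 0.35 without KO replicate 1, where the gene was called (adjusted p = 0.0242).

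Loxl3 (ENSMUSG00000000693, chromosome 6, 83034173 to 83052562, plus strand), the least abundant of the 10 genes, had 16.2, 16.6 and 18.3 CPM in WT and 16.9, 25.8 and 25.6 CPM in KO. KO replicate 1 lay within the WT range and the other KO libraries above it. Its log2 fold change was 0.42 (SE 0.21, edgeR adjusted p = 0.14), and 0.60 without KO replicate 1 (adjusted p = 0.00284). Htra2 on the opposite strand shares 11.6% of its exonic bases. With Loxl3 and Loxl4 called, 8 of the 10 genes were higher without KO replicate 1, and 0 were lower, where 42.3% of 15453 tested genes were called, 19.9% higher and 22.4% lower.

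By level per length in WT, Lox (99.9 ± 13.0 CPM per kilobase, SD, n = 3) led the lysyl oxidases, followed by Loxl1 (34.1 ± 1.26), Loxl4 (18.5 ± 1.83), Loxl2 (15.03 ± 0.913) and Loxl3 (3.70 ± 0.245), and neighbours in this order differed by more than their SDs. In KO the order was Lox (200.7 ± 51.9), Loxl1 (33.5 ± 10.0), Loxl2 (25.8 ± 2.99), Loxl4 (19.4 ± 7.05) and Loxl3 (4.95 ± 1.10). Loxl1 and Loxl2 differed by less than the larger SD of the pair, and so did Loxl2 and Loxl4. Within libraries Loxl2 was above Loxl4 in each KO library, and Loxl1 was above Loxl2 in KO replicates 2 and 3 and just below it in KO replicate 1 (6.97% against 7.07% of the family). Lox made up 60.3%, 54.1% and 60.2% of the family in WT and 81.3%, 65.4% and 62.9% in KO. The summed level of the family was 171 ± 13.3 CPM per kilobase in WT and 284 ± 32.3 in KO, that of the lysyl hydroxylases 66.1 ± 1.73 and 96.1 ± 8.79, and that of the 3 prolyl 4-hydroxylase alpha subunits, P4ha3 included, 51.1 ± 5.65 and 143 ± 43.3. P4ha1 made up 67.9% to 72.6% of the alpha subunits in WT and 65.6% to 74.8% in KO, so the groups overlapped. Per length P4ha1 stood above P4ha2 in both groups, at 36.1 ± 3.01 against 10.9 ± 2.46 CPM per kilobase in WT and 99.7 ± 38.5 against 33.0 ± 8.35 in KO.

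**Figure D3:**
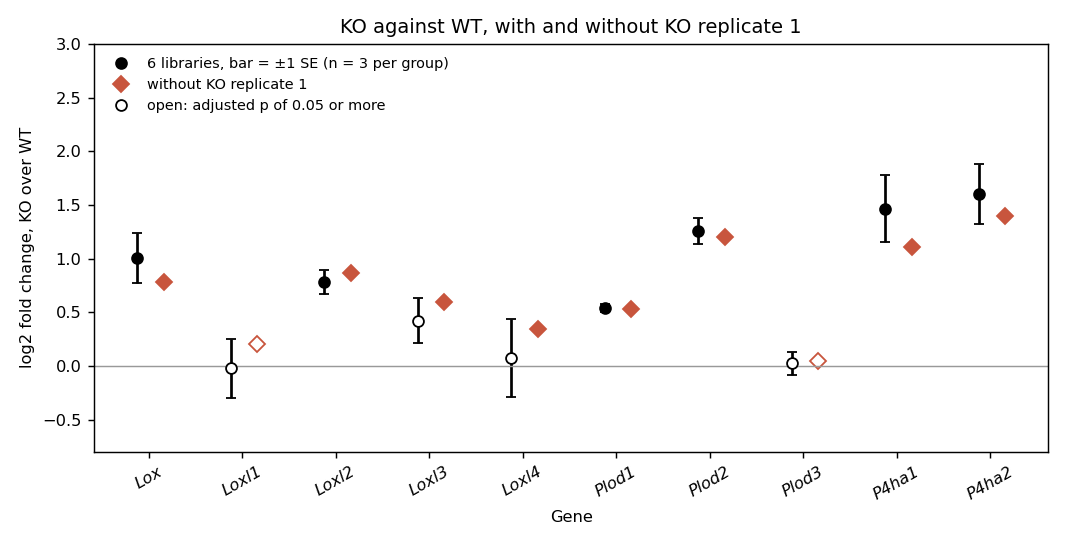
Log2 fold change of KO over WT for each of the 10 genes. Black circles use all 6 libraries, with bars of 1 SE from n = 3 per group, red diamonds leave out KO replicate 1, and open symbols have an adjusted p of 0.05 or more. P4ha2 is the highest circle (1.60), and Loxl3 and Loxl4 are open with all libraries and filled without KO replicate 1.

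The enzymes work with partners, and these were measured from a list of 36 genes of collagen processing, of which 33 could be tested. Of these 18 rose, 1 fell and 14 were not called, with a median log2 fold change of 0.60 (background 13.8% higher and 14.5% lower). Without KO replicate 1 the counts were 24 higher and 2 lower, against 19.9% and 22.4% of all genes tested in that fit. The list is split by role below, and with 3 to 9 tested genes per role a count of 0 lower says little.

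Of 9 tested genes for other hydroxylases, their partners and the collagen galactosyltransferases, 7 rose and 0 fell (13.8% and 14.5% of all tested genes). The 0 was the same at an unadjusted p below 0.05, with DESeq2 and with limma-voom. P4hb, the disulfide isomerase that forms the beta subunit of prolyl 4-hydroxylase, was at 808.8, 721.5 and 712.1 CPM in WT and 1133, 1301 and 1488 CPM in KO, a log2 fold change of 0.81 (SE 0.13, edgeR adjusted p = 0.00658). The beta subunit thus rose beside the alpha subunits. Crtap and P3h1, which act together in prolyl 3-hydroxylation, rose by 0.75 and 0.60 log2 (SE 0.08 each, edgeR adjusted p = 0.00268 and 0.00774), P3h1 losing its call without WT replicate 2 (adjusted p = 0.0536). P4ha3, the third alpha subunit, was at 10.7 to 14.8 CPM in WT and 20.8 to 39.7 CPM in KO and was called as well.

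Of 7 genes for procollagen chaperones and export, 4 rose and 0 fell (13.8% and 14.5% of all tested genes). The lower count was again 0 at an unadjusted p below 0.05, with DESeq2 and with limma-voom. Serpinh1, which encodes the collagen chaperone HSP47, was at 502.9, 432.7 and 452.2 CPM in WT and 828.0, 794.5 and 787.4 CPM in KO. Its log2 fold change was 0.80 (SE 0.07, edgeR adjusted p = 0.00285). Sec24d and Sec23a, coat proteins of the vesicles that carry procollagen out of the endoplasmic reticulum, rose by 1.04 and 1.02 log2 (edgeR adjusted p = 0.00113 and 0.00216).

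Among 6 tested genes for propeptide removal 3 rose and 1 fell (13.8% and 14.5% of all tested genes). Adamts2, the main protease of the procollagen amino end, was at 11.4, 11.4 and 14.7 CPM in WT and 70.0, 98.4 and 82.7 CPM in KO, a log2 fold change of 2.75 (SE 0.19, edgeR adjusted p = 0.000106). Adamts14 and Pcolce2, an enhancer of the protease of the carboxyl end, rose by 0.98 and 1.94 log2. Pcolce2 was only 19.0 CPM in KO replicate 1 against 66.8 and 58.9 in the others, and lost its call without WT replicate 1, 2 or 3 (edgeR adjusted p = 0.0509, 0.0550 and 0.0608). Adamts3 fell from 50, 11 and 27 counts in WT to 0, 1 and 6 in KO (log2 fold change -3.67, edgeR adjusted p = 0.0189) and was no longer called when WT replicate 1 (0.0723), WT replicate 3 (0.0581) or KO replicate 2 (0.0518) was left out. Bmp1, the protease that removes the carboxyl propeptide and also activates the lysyl oxidase precursor, had a log2 fold change of 0.01 (edgeR adjusted p = 0.957).

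Of 8 genes for matrix scaffolds on which lysyl oxidase acts and for copper supply, 4 rose and 0 fell in the edgeR test. Among all tested genes 13.8% were higher and 14.5% lower. In this list 1 gene, Fbln5, was lower at an unadjusted p below 0.05 and with DESeq2, and 0 were lower with limma-voom. Fmod, fibromodulin, was at 2.67, 1.48 and 5.94 CPM in WT and 45.2, 136.3 and 47.3 CPM in KO, a log2 fold change of 4.51 (SE 0.77, edgeR adjusted p = 0.00239). Postn, periostin, was at 5.41, 17.8 and 4.32 CPM in WT and 300.1, 174.0 and 84.3 CPM in KO (4.34 log2, SE 0.82, edgeR adjusted p = 0.00348). Fn1, fibronectin, rose by 1.23 log2 from 2109 ± 314 to 4949 ± 1298 CPM (SD, n = 3). Atp7a, the pump that brings copper to secreted enzymes, was the other gene called (1.04 log2, edgeR adjusted p = 0.00719). The transglutaminases Tgm1 and Tgm2 and the peroxidase Pxdn were not called, Pxdn having the smallest p of these 3 (log2 fold change 0.28, edgeR adjusted p = 0.309). Of these 3, 0 were higher or lower at an unadjusted p below 0.05, with DESeq2 or with limma-voom. Without KO replicate 1 Pxdn was called higher (0.46 log2, adjusted p = 0.0145) and Tgm2 lower (-0.67 log2, adjusted p = 0.00153).

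**Figure D4:**
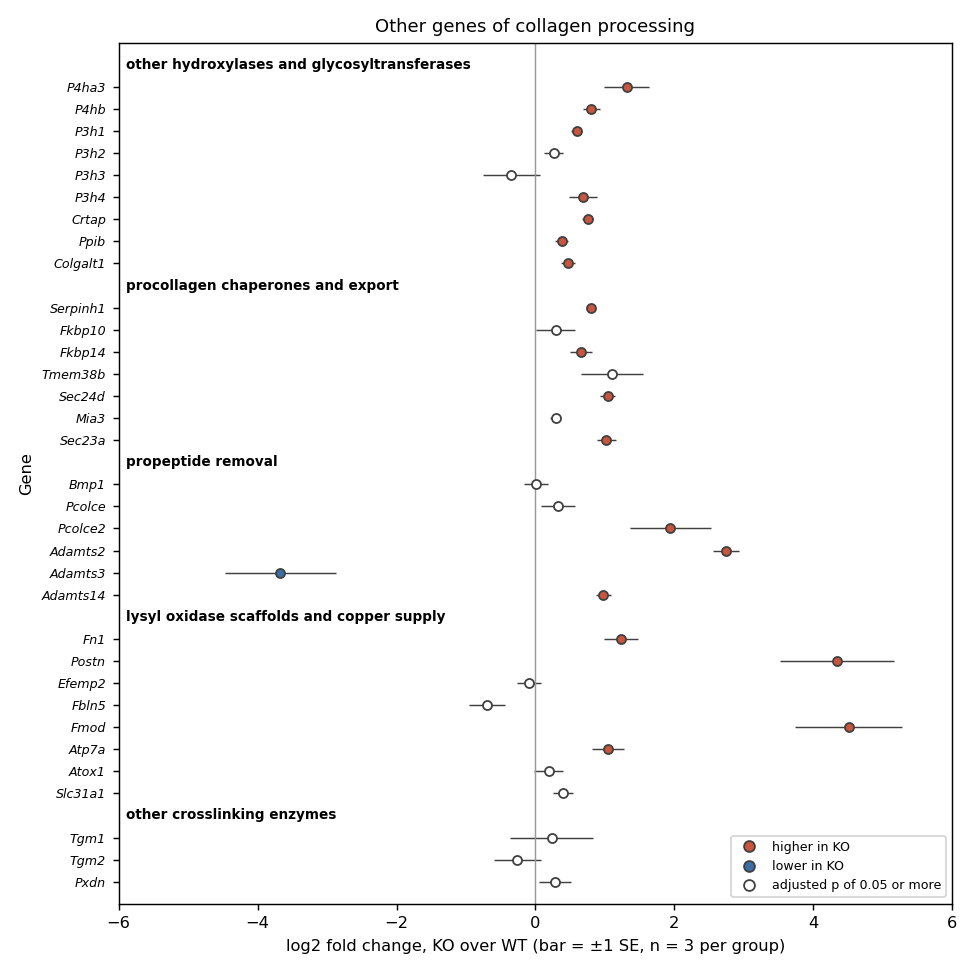
Log2 fold change of KO over WT for the 33 tested partner genes of collagen processing, by role, with bars of 1 SE from n = 3 per group. Red points were called higher, blue lower and open points not called; 18 are red and 1, Adamts3, is blue.

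Of 10 genes for fibrillar collagens and elastin, on which the enzymes act, 4 rose and 3 fell, against 13.8% higher and 14.5% lower among all tested genes. Col3a1 was at 38.3, 16.9 and 37.9 CPM in WT and 1193, 810.7 and 1059 CPM in KO, and Col1a1 at 547.3, 449.0 and 683.7 CPM in WT and 1476, 1573 and 1585 CPM in KO. The log2 fold changes were 5.04 and 1.46 (SE 0.42 and 0.18, edgeR adjusted p = 0.000152 and 0.00113). Col1a2, the partner chain of Col1a1 in type I collagen, rose by 4.30 log2 but remained at 0.3003 ± 0.110 CPM in WT and 6.00 ± 1.74 in KO (SD, n = 3). Col5a1 rose by 0.76 log2. Col5a3, Col11a1 and Col11a2 fell, with log2 fold changes of -2.96, -4.90 and -1.26, the last losing its call without WT replicate 1, 2 or 3 or KO replicate 3 (edgeR adjusted p = 0.08957, 0.1275, 0.1308 and 0.06811).

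P4ha1, P4ha2, Plod2 and Lox are known to be induced through HIF in low oxygen, and 14 other genes known for this were listed beside them. The list was chosen with earlier results of these data known. Of these 14 genes 11 rose, 0 fell and 3 were not called, with a median log2 fold change of 1.45. The 0 lower was also 0 at an unadjusted p below 0.05, with DESeq2 and with limma-voom. With 14 genes a count of 0 lower says little. Those not called were Vegfa (0.46 log2, edgeR adjusted p = 0.0935), Ndrg1 (1.30 log2, 0.0716) and Ddit4 (0.13 log2, 0.636). Over all tested genes 13.8% were higher and 14.5% lower. Pgk1, a glycolytic kinase, was at 526.6, 441.0 and 463.1 CPM in WT and 1898, 1641 and 2142 CPM in KO (1.99 log2, SE 0.13, edgeR adjusted p = 0.000221). Bnip3, a mitophagy receptor, was at 62.1, 47.8 and 55.5 CPM in WT and 468.5, 216.4 and 341.5 CPM in KO (2.63 log2, SE 0.34, edgeR adjusted p = 0.000675). Egln3, which encodes a prolyl hydroxylase of HIF itself, was at 18.3, 14.2 and 15.5 CPM in WT and 43.8, 44.7 and 49.4 CPM in KO (1.52 log2, SE 0.12, edgeR adjusted p = 0.000403). KO replicate 1 was the highest library for Bnip3, Vegfa, Slc2a1, Car9, Ndrg1, Egln1, Ankrd37 and Adm, as it was for P4ha1, P4ha2 and Lox. It was not the highest for Pgk1, Egln3, Pdk1, Kdm3a, Ddit4 or Ldha. Nor was it for Plod2, at 215.9 CPM against 217.1 in KO replicate 3. Without KO replicate 1, 12 of the 14 were higher and 0 lower, against 19.9% and 22.4% of all genes tested in that fit. Whether this list and the enzymes share a cause was not tested.

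Genes induced by TGF-beta, a known inducer of lysyl oxidases and lysyl hydroxylases in fibroblasts, were called higher in 3 of 9 cases and lower in 2, against 13.8% and 14.5% of all tested genes. With 9 genes these counts say little about the list. Itga11, a collagen-binding integrin, rose by 3.97 log2, Tgfb1i1 by 1.28 and Bhlhe40 by 1.66, while Ltbp2, a matrix protein related to the fibrillins, and Tgfbi fell, with log2 fold changes of -4.68 and -1.75. Bhlhe40 was 0.92 log2 higher without KO replicate 1 and lost its call with limma-voom (adjusted p = 0.083) and without WT replicate 1, 2 or 3 (edgeR adjusted p = 0.09997, 0.1135 and 0.1191). Ccn2 was at 84.0 CPM in KO replicate 1 and 20.25 and 14.4 CPM in KO replicates 2 and 3, and was not called.

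**Figure D5:**
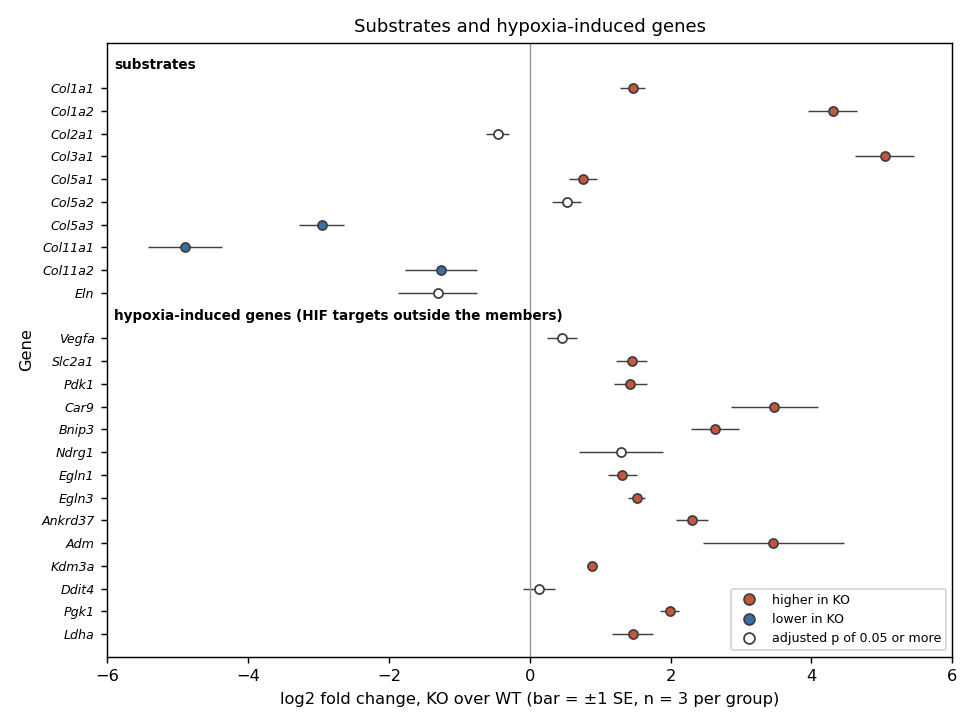
Log2 fold change of KO over WT for 10 substrate genes and 14 genes known to be induced in low oxygen, with bars of 1 SE from n = 3 per group. Red points were called higher, blue lower and open points not called; 11 of the 14 genes induced in low oxygen are red.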

How the data were processed

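Total RNA was sequenced from 6 libraries, 3 WT and 3 KO, with TruSeq v2 library preparation, per the labels' protocols. The authors deposited raw read counts per Ensembl gene, 1 file for each library. Build GRCm38.p4 and the tools HTSeq, TopHat2 2.1.0 and DESeq2 are listed, with no roles, per the submitters' processing notes. Annotation release and strand setting: not given in the sources used here. Of 46603 gene identifiers 46091 matched GENCODE M21 (GRCm38), which gave symbols, positions and exon lengths (all exons of a gene merged).

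Counts were filtered (filterByExpr by group), scaled with TMM and tested, KO against WT, with the edgeR 4.0.16 quasi-likelihood F test in R 4.3.3, two-sided, group as the only term. SEs were taken from log2 CPM values (prior count 2) as the error of the difference between group means. The fit was tested on simulated counts with the same dispersion for every gene and no outlying library. That test does not cover a library like KO replicate 1. Markers of 7 cell types or states were summed per library. A count of 3 equals 0.0777 to 0.111 CPM by library; the 10 genes had 450 counts or more in each. Alternatives were other scalings and filters, DESeq2 1.42.0, limma-voom (limma 3.58.1), glmTreat, a replicate block and each library left out. Named genes are all 10, plus up to 3 called genes per direction with the smallest p from each other list, or the smallest p where none was called. P4ha3, Atp7a, Bmp1, Fbln5, Tgm1, Tgm2, Col5a1, Ccn2, the other hypoxia-induced genes and the markers were named after their values were seen. Counts for the hypoxia-induced list under the alternatives were added after seeing the data. The genes and lists were chosen with earlier results of these data known.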

Additional observations from a re-analysis of the deposited data

How the results depend on the processing

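Of 160 fits of the 10 genes under 16 alternatives, 142 kept direction and call. Against a log2 fold change of 1 (glmTreat), 1159 genes were called in place of 4255, 1 of the 10 enzyme genes in place of 6, 3 partner genes higher in place of 18 and 0 lower in place of 1, and 5 hypoxia-induced genes in place of 11 (a count chosen after seeing the data); this test asks for a greater change. Leaving out 1 library gave 2298 to 6537 genes called, 5 to 8 enzyme genes higher, 12 to 24 partner genes higher and 0 to 2 partner genes lower. The highest of the first 3 counts came without KO replicate 1 and the lowest without WT replicate 2. The partner genes lower were 0 without WT replicate 1 or 3. Partner genes higher were 14 with library totals and 21 with DESeq2. Partner genes lower were 2 with library totals and 2 with DESeq2 (Adamts3 and Fbln5) and 0 with a CPM of at least 1 in 3 libraries. Direction turned in genes that were not called. Leaving out 1 library gave -0.20 to 0.20 for Loxl1, -0.087 to 0.348 for Loxl4 and -0.068 to 0.10 for Plod3. Library totals gave -0.11 for Loxl4 and -0.17 for Plod3, and upper-quartile scaling -0.032 for Plod3. Library totals also moved the median of all genes to -0.19 log2 from 0.01 and the share of higher genes among calls to 28.8% from 48.7%; the 6 calls held. Library totals leave out the TMM factors, which were 1.0531 to 1.0995 in WT and 0.881 to 0.9646 in KO, so this move of the median follows from the scaling. Why the factors differ between the groups, and the cause of the other changes, were not tested.

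Equally numbered WT and KO libraries were not paired by the labels, and their deviations from the group means correlated at -0.101, 0.046 and -0.148. With the replicate number as a block 3045 genes were called, with 6 of the 10 enzyme genes higher and 0 lower. Without division by exon length, 12 of 22 isozyme shares moved by more than 1 SD. Plod3 was then 43.2% of lysyl hydroxylases in WT and 29.5% in KO, where it was below Plod1 (32.15%). Among lysyl oxidases, Loxl4 (10.2%) was then below Loxl2 (10.63%) in WT, and Loxl1 (8.68%) below Loxl2 (10.83%) in KO. Lox in both groups and Plod3 in WT still led their families. Counting error was small at 450 counts or more per gene and library, and the 3 libraries per group limit precision.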
